A study of Caenorhabditis elegans with 2 samples.

Results

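The genes described are 8 T-box genes of Caenorhabditis elegans, namely tbx-2, mab-9, tbx-7, tbx-8, tbx-9, tbx-11, tbx-37 and tbx-38, out of 19973 protein-coding genes on the nuclear chromosomes. They were taken from a fixed list of names, and each was described by the binding regions of NFYA-1 whose summit, the position of highest signal, lay between 5 kb upstream of the gene start and the gene end. NFYA-1 was immunoprecipitated from whole hermaphrodite late embryos of strain OP404, genotype unc-119(tm4063) III with the transgene wgIs404, in which the protein carries GFP-FLAG at its C terminus; the age in hours is given as unknown. There was 1 group of 2 biological replicates from this 1 transgenic strain, with no second genotype, stage or treatment, and per the labels' descriptions the antibody recognised GFP, whereas their antibody field names nfya-1. The peak list, which passed the authors' reproducibility threshold, held 4098 regions in build ce11 (WBcel235), the strongest of the 15515 regions called on both replicates pooled; called separately, replicate 1 gave 21476 regions and replicate 2 gave 28596.

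T-box genes encode transcription factors with the DNA-binding domain first described in Brachyury, and many of them direct the fate of mesoderm, pharynx and hindgut cells in the embryo. In the worm, tbx-2 is needed for pharyngeal muscles that descend from the blastomere ABa, mab-9 for hindgut and male tail development, tbx-8 and tbx-9 act redundantly in shaping the embryo, and tbx-37 and tbx-38 act redundantly in the Notch-dependent choice of pharyngeal fate by ABa descendants. NF-Y is a complex of the subunits A, B and C that binds CCAAT boxes, often close to a transcription start. Earlier genetic work in the worm described NF-Y as a negative regulator of tbx-2, and whether NFYA-1 occupies this gene is the question that these regions address.

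NFYA-1 lay at the starts of tbx-2 and mab-9 and at the start of no other listed gene with a signal past the threshold. The summits were 91 bp upstream of tbx-2 and 53 bp upstream of mab-9, and each had a single CCAAT box within 50 bp. Their promoters are shown because they carry these boxes, as the 200 bases that end just before the gene start, read on the strand of the gene, from RefSeq's copy of WBcel235. Capitals mark CCAAT, or ATTGG where the box lies on the other strand. The tbx-2 stretch is chrIII:5136297-5136496 on the minus strand, and the mab-9 stretch is chrII:515824-516023 on the plus strand. Both stretches are intergenic in the annotation.
tbx-2 promoter: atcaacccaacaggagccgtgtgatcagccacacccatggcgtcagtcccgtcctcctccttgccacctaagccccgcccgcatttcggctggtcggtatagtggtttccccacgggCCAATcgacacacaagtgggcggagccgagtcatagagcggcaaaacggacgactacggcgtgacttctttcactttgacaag
mab-9 promoter: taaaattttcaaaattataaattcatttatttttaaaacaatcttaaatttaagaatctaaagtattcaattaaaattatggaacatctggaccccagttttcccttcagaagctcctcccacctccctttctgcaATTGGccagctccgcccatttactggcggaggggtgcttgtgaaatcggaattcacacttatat

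The middle of the tbx-2 box lay 81 bp upstream of the start, on the same strand as the gene, and 10 bp from the summit on the side of the gene. The middle of the mab-9 box lay 62 bp upstream of the start, on the opposite strand, and 9 bp from the summit on the side away from the gene. In the stretch of 10 bases to each side of the box, read with the box as CCAAT, 6 of 20 flanking bases were the same in both genes. That count lay within the range of 3 to 8 over pairs that included a box of a region below the reproducibility threshold. Summit windows of 50 bp to each side had a GC content of 62.4% at tbx-2 and 52.5% at mab-9, against a median of 48.5% over the nuclear peaks.

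The peak of tbx-2 (WBGene00006543, III:5130923 to 5136296, minus strand) spanned III:5136209 to 5136564 with its summit at 5136387, so that it covered the start itself. Its signal was 241 in the peak list, where it ranked 563, and 86.3% of peaks had a lower signal. The signal is the authors' enrichment value for a region; its scale is not stated, and regions are ranked by it within 1 list only. In replicate 1 the region had a signal of 122 and ranked 628, with its summit at the same base. In replicate 2 it had a signal of 118 and ranked 537, with its summit 7 bp nearer to the gene. Replicate regions are those whose span held the pooled summit, and since the peak list was made from both replicates, their ranks are not independent of it.

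The peak of mab-9 (WBGene00003106, II:516024 to 521635, plus strand) spanned II:515793 to 516148 with its summit at 515971. Its signal was 181 in the peak list, where it ranked 955, above 76.7% of peaks. In replicate 1 the region had a signal of 93.5 and ranked 1003, with its summit 2 bp farther upstream, and in replicate 2 it had a signal of 84.8 and ranked 968, with its summit 19 bp farther upstream. The tbx-2 region was thus the stronger of this pair in each replicate. No test of this order was made. The ratio of replicate 1 to replicate 2 signal was 1.04 for tbx-2 and 1.102 for mab-9, both inside the quartiles of 0.898 and 1.39 over the 4027 peaks found in both lists. In chromatin of whole embryos, occupancy in few cells and weak occupancy in many cannot be told apart.

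**Figure D1:**
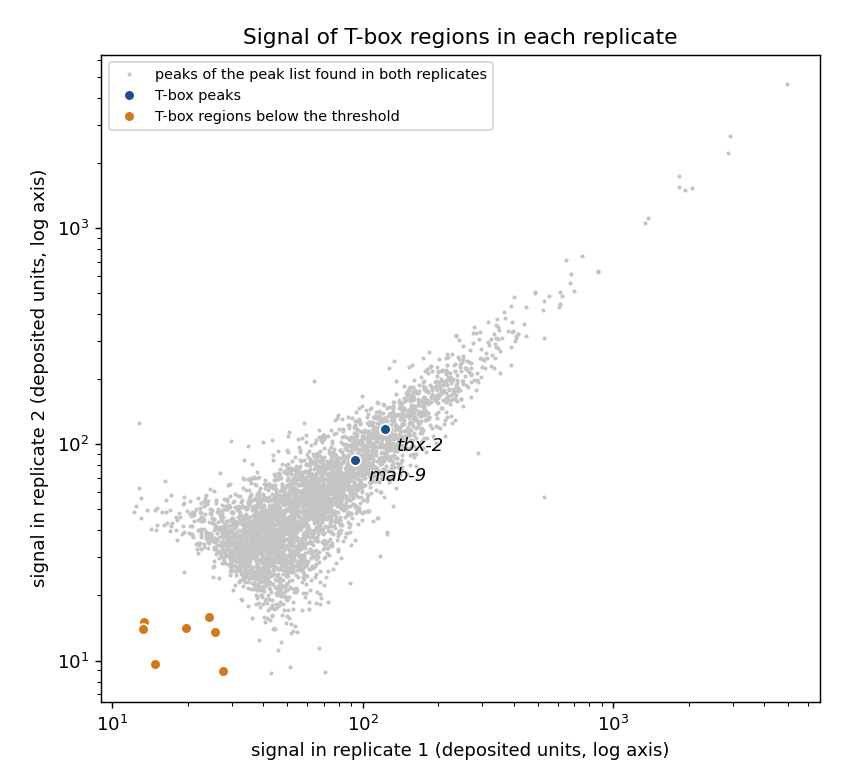
Signal in replicate 1 against signal in replicate 2, both in deposited units on log axes; grey points are the 4027 peaks found in both replicates, blue points the peaks of tbx-2 and mab-9, and orange points the 7 T-box regions below the threshold that had a region in both replicates. The blue points lie within the grey band, at 122 and 118 for tbx-2 and 93.5 and 84.8 for mab-9, and the orange points lie at the lower left.

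The count of 2 of 8 genes with a peak anywhere in the window was close to the share among all coding genes, 28.6%. Restricted to summits no more than 500 bp before and 100 bp after a coding transcript start, it was the same 2 of 8 genes against 11.2% of coding genes. With a CCAAT box wholly within 50 bp of the summit as a further condition, it was again these 2 genes, against 9.50% of coding genes for the full window and 2.23% for the window at the start. Over all 22 T-box genes that could be matched to the annotation, which include the 8, the share with a peak in the full window was 9.09%. It came from the same 2 genes, so the share with a peak and CCAAT was also 9.09%, close to the 9.50% of coding genes. The 8 genes were listed with earlier results of these data known, so no test over the list was made and these counts are a description.

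Against other peaks near starts, both T-box summits lay close to the gene. Of the nuclear peaks, 1793 had their summit in that same span around a coding start, at a median of 171 bp upstream and with quartiles of 269 and 90 bp upstream. The summit of mab-9 lay nearer to the start than the nearer quartile and that of tbx-2 lay about on it. Their signals exceeded those of 77.6% and 87.1% of these promoter peaks, whose median was 107. CCAAT within 50 bp of the summit was found in 20.3% of the promoter peaks and in 32.9% of the nuclear peaks as a whole. Among the 1342 peaks with a box, the middle of the nearest box lay at a median of 15 bp from the summit, so the distances of 10 and 9 bp at tbx-2 and mab-9 fell in the nearer part of that distribution.

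**Figure D2:**
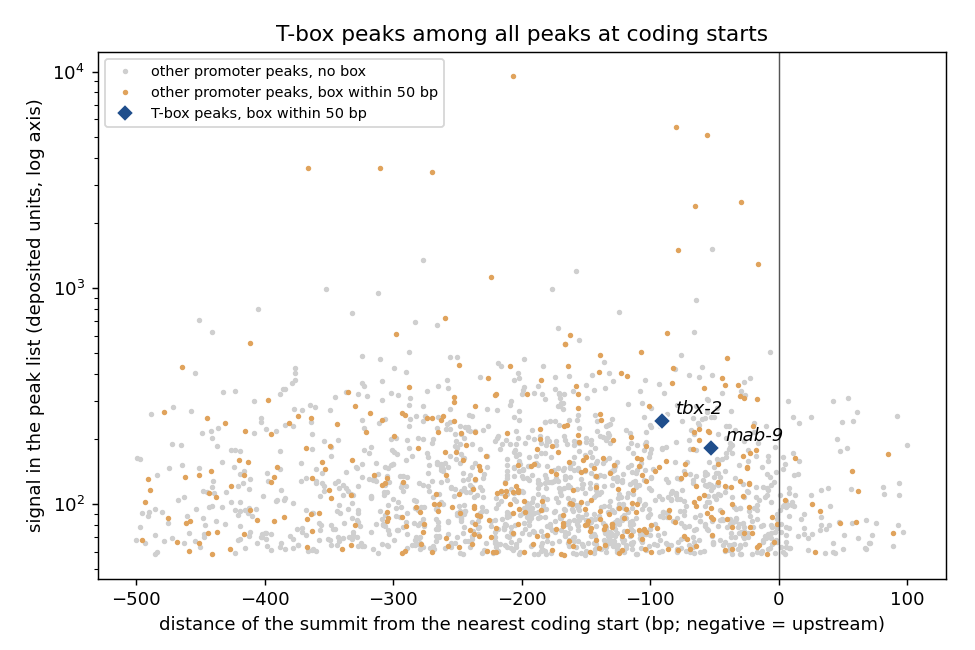
Signal in the peak list (deposited units, log axis) against the distance of the summit from the nearest coding start in bp, for the 1793 peaks at starts; grey points hold no CCAAT within 50 bp of the summit, orange points hold it, and blue diamonds are the T-box peaks, which also hold it. The diamonds sit 91 and 53 bp upstream, at signals of 241 and 181, above the median of 107.

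**Figure D3:**
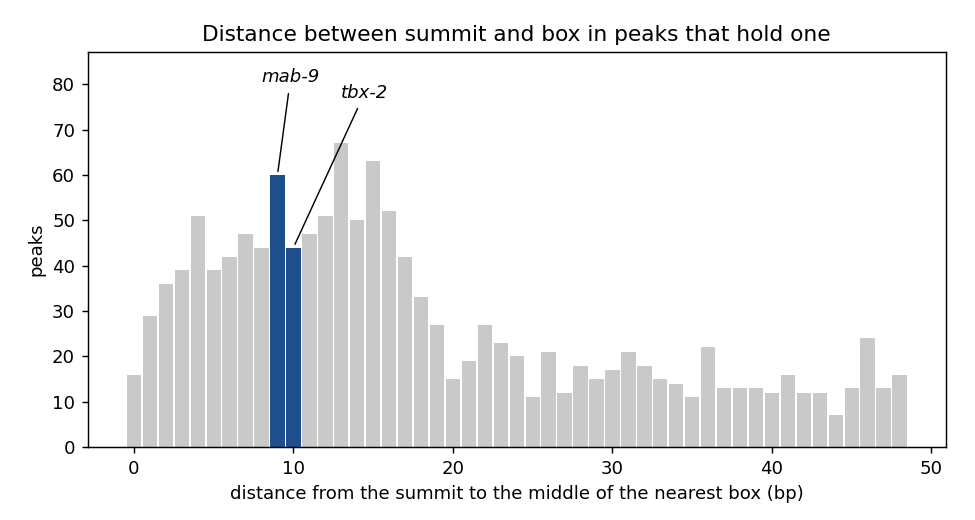
Number of peaks by the distance in bp from the summit to the middle of the nearest CCAAT box, over the 1342 nuclear peaks with a box within 50 bp; the blue bars are the distances that hold tbx-2 (10 bp) and mab-9 (9 bp). Both lie below the median of 15 bp.

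The promoters of tbx-2 and mab-9 also shared a longer word than the box. The longest word found in both 201-bp summit windows, on either strand, was TGGGCGGAGC, which contains the core GGGCGG of a GC box. In tbx-2 it lay 58 to 67 bp upstream of the start, 11 bases from the CCAAT box, and in mab-9 47 to 56 bp upstream, 3 bases from the box. In both genes the word and CCAAT stood on the same strand as each other. Read on that strand, the word came after the box in tbx-2 and before it in mab-9. Searched on both strands, the word was held by 6.02% of the 201-bp windows around nuclear peak summits and by 0.420% of windows of that length from 250 to 50 bp upstream of coding starts. These upstream windows end 50 bp before the start, so the mab-9 word lies partly outside them. Of the peaks at coding starts alone, 1.90% held the word, a smaller share than over all nuclear peaks. The core alone, which the word contains, was held by 19.3% of the peak windows and 5.79% of the upstream windows, and CCAAT by 45.3% and 32.8%. This word was searched for after the sequences had been seen, and a match is a description of the letters.

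GGTGTG, the core of the site that T-box proteins bind, was found once in the summit window of tbx-2, on the strand opposite to the gene and 78 bp upstream of the summit, and not in that of mab-9. It was held by 9.43% of peak windows and 5.63% of upstream windows. TBX-2 has been described as repressing its own gene, which is why this core was searched.

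Beyond the peak at its start, tbx-2 had more regions than the other listed genes. Its window of 10374 bp held 7 regions of the pooled list, 9 of replicate 1 and 11 of replicate 2. As to the pooled list, 1.48% of coding genes had 7 or more; the median gene had 1 in a median window of 7027 bp. The 6 regions besides the peak were all below the reproducibility threshold, at signals from 25.6 to 42.3, where the weakest peak had 58.2 and the strongest region outside the peak list 58.1. The pooled list holds background regions by design, so a region in it is not a call of binding.

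Within tbx-2, such regions lay in introns 1, 3 and 4 of 4, with summits 1623, 3088 and 4248 bp downstream of the start. The region in intron 1 had a pooled signal of 33.3, a signal of 27.7 and rank 4902 in replicate 1, and a signal of 8.998 and rank 25230 in replicate 2, where its summit lay 1508 bp downstream of the start. Its ranks differed more between the replicates than those of the other regions of tbx-2. The region in intron 3 had a pooled signal of 25.9, with ranks 16768 and 11769 in replicate 1 and replicate 2. The region in intron 4 had a pooled signal of 32.5, with ranks 16390 and 10239, and it was the only one of the 6 with CCAAT within 50 bp of the summit.

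Upstream of tbx-2, the other 3 regions lay in introns of the neighbouring gene Y54H5A.2, which is on the same strand and begins farther upstream. Their summits were 1463, 2433 and 4557 bp upstream of the tbx-2 start, which was the nearest coding start to each. The farthest had the highest signal of the 6, at 42.3 in the pooled list, with rank 5783 in replicate 1 and 9263 in replicate 2. The middle region had 35.99, with ranks 8065 and 11405, and the nearest had 25.6, with ranks 13562 and 22967. None of these 3 held CCAAT within 50 bp of its summit.

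In mab-9, 2 regions below the threshold accompanied the peak, both within the gene. The region in intron 3 of 8 had its summit 2465 bp downstream of the start and a pooled signal of 40.7, with a signal of 25.7 and rank 5396 in replicate 1 and a signal of 13.6 and rank 12370 in replicate 2. It held 2 CCAAT boxes within 50 bp of the summit, on opposite strands, with their middles 10 bp before and 34 bp after it. The region in intron 5, 3576 bp downstream, had a signal of 23.8, no box within 50 bp and no region in replicate 2, and its nearest coding start was that of slc-36.2. The regions with a box that lay below the threshold are shown for comparison with both promoters, as 101 bases centred on the summit, on the strand of the named gene, with boxes in capitals as before. They are tbx-2 intron 4 at chrIII:5131998-5132098 on the minus strand, mab-9 intron 3 at chrII:518439-518539 on the plus strand, and the stretch upstream of tbx-8 at chrIII:10346768-10346868 on the plus strand.
tbx-2 intron 4: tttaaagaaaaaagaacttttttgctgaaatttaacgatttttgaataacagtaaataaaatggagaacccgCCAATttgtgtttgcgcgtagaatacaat
mab-9 intron 3: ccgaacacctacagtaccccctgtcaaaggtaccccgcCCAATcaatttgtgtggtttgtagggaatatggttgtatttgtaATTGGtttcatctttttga
tbx-8 upstream: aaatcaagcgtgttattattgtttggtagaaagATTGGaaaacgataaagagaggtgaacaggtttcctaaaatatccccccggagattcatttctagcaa

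The neighbours tbx-8 (WBGene00006545, III:10347349 to 10349740, plus strand) and tbx-9 (WBGene00006546, III:10340006 to 10341858, minus strand) are divergent, with starts 5491 bp apart. Their windows shared 1 pooled region, with its summit 531 bp upstream of tbx-8 and 4960 bp upstream of tbx-9. Its pooled signal was 24.9, ranked 12728, no region of replicate 1 or replicate 2 held its summit, and 1 CCAAT box had its middle 15 bp from the summit on the side away from tbx-8. A further region lay in a coding exon of tbx-9, 1481 bp downstream of its start, with a pooled signal of 23.1, rank 14704, a rank of 12978 in replicate 1 and no region in replicate 2. Neither gene had a peak, and the nearest, 13223 bp upstream of tbx-8 and 7732 bp downstream of the tbx-9 start, belonged to the start of jmjd-4. The lowest signal in the pooled list was 22.5, so both pooled regions stood close to its floor. Outside the pooled regions, replicate 1 alone had a region 497 bp upstream of tbx-9, ranked 17609, with CCAAT within 50 bp. Replicate 2 alone had a region 510 bp downstream of the tbx-9 start, ranked 24973, without CCAAT within 50 bp.

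No pooled region lay in the windows of tbx-7, tbx-11, tbx-37 and tbx-38. For tbx-11 (WBGene00006547, III:6045615 to 6046981) neither replicate had a region either, and the nearest peak was 32055 bp upstream. For tbx-7 (WBGene00006544, III:6024958 to 6028532), replicate 2 alone had a region, ranked 23773, whose nearest coding start was that of ZK328.6. For tbx-37 (WBGene00006556, III:11224808 to 11227125), replicate 1 had a region ranked 17831, 2051 bp downstream of the start, and replicate 2 had other regions 764 bp downstream and 556 bp upstream, ranked 20126 and 20487. For tbx-38 (WBGene00006557, III:11784082 to 11786061), replicate 1 alone had a region, ranked 12596. It lay 4102 bp upstream, and its nearest coding start was that of C24H11.2. In these 4 genes no region recurred between replicates.

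The copies tbx-37 and tbx-38 resemble each other in sequence. Their windows aligned over a longest stretch of 534 bp at 81.3% identity, and their upstream 5 kb over 232 bp at 81.0%. The windows of tbx-8 and tbx-9 overlap between the 2 genes, so part of them is the same DNA, which the alignment values leave out. Apart from that shared stretch, the longest alignment listed for them was 230 bp at 69.6% identity. No alignment was found between the windows of tbx-2 and mab-9. How reads matching more than 1 copy were placed is not stated.

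Just outside the 5 kb limit, the peak nearest to tbx-38 lay 6711 bp upstream, with a signal of 61.8 and rank 3856, and its nearest coding start was that of C24H11.2. A peak with a signal of 99.6 lay 9864 bp upstream of tbx-37, nearest to the start of Y47D3A.14, and 1 with a signal of 88.2 lay 9800 bp upstream of mab-9. With the window widened to 10 kb upstream, 4 of the 8 genes had a peak, the additional genes being tbx-37 and tbx-38 through these regions.

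**Figure D4:**
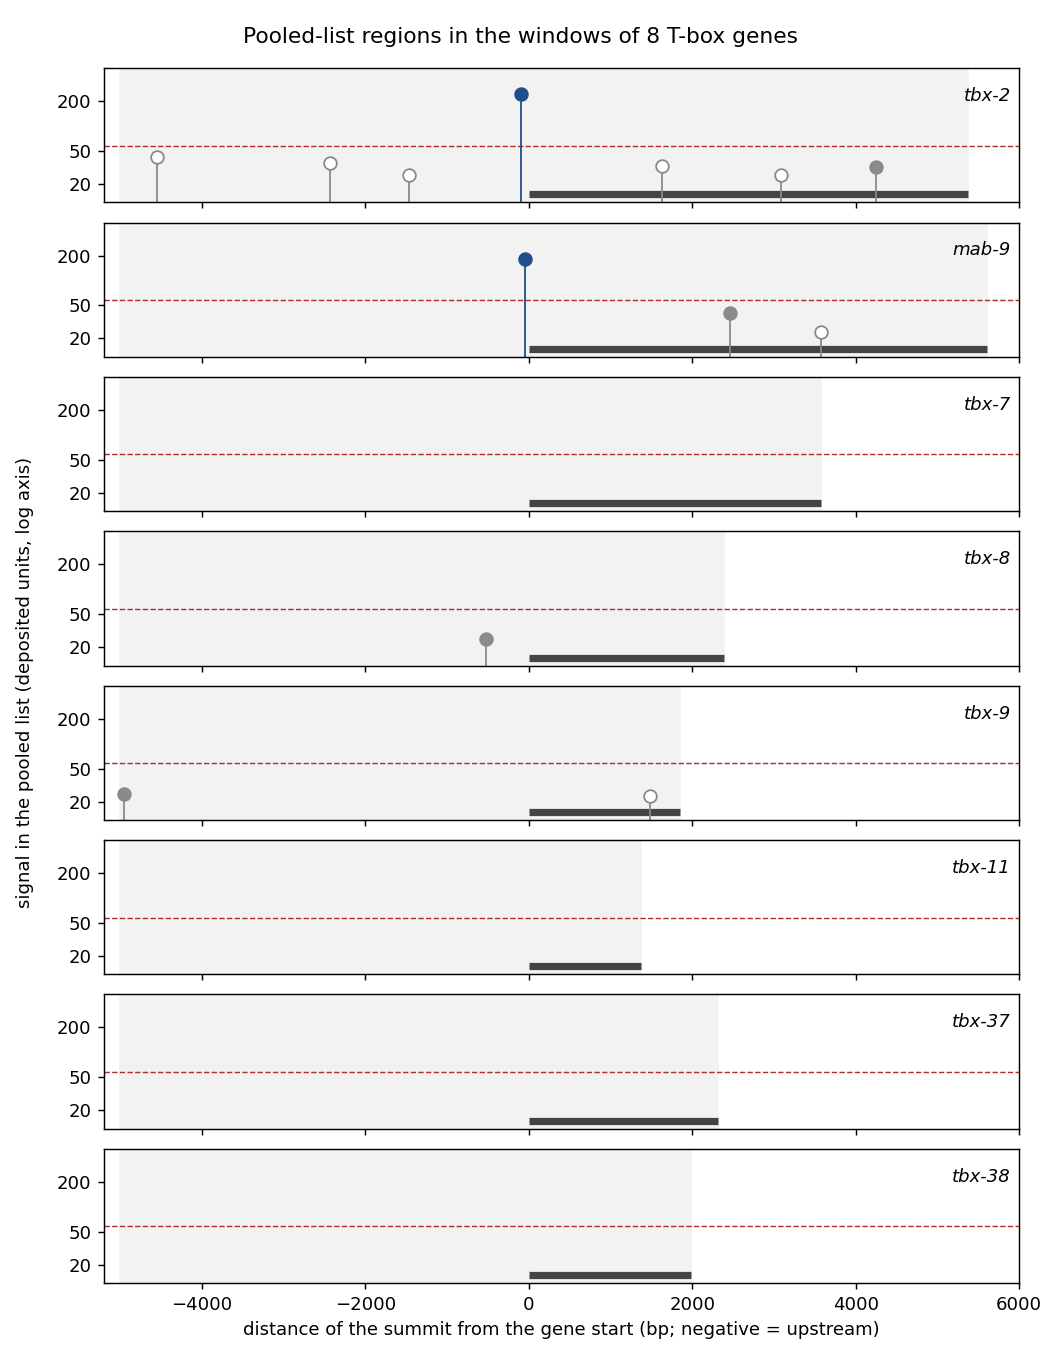
Signal of each pooled-list region (deposited units, log axis) against the distance of its summit from the gene start in bp, 1 panel for each of the 8 genes; blue marks peaks, grey regions below the threshold, filled circles a CCAAT box within 50 bp of the summit and open circles none, the dark bar is the gene, the shaded band the window and the dashed line the weakest peak (58.2). Peaks stand at the starts of tbx-2 and mab-9, regions below the line also appear at tbx-8 and tbx-9, and the panels of tbx-7, tbx-11, tbx-37 and tbx-38 are empty.

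In sum over the list, 4 of 8 genes had a pooled region in the window, against 58.3% of coding genes. From the 15515 strongest regions of 1 replicate, it was 2 without replicate 1 (tbx-2 and mab-9) and 4 without replicate 2 (tbx-2, mab-9, tbx-9 and tbx-38, in place of tbx-8). Of the 12 distinct regions, 10 lay below the threshold, and 7 of these 10 had a region in both replicates. Those 7 lay in the windows of tbx-2 and mab-9. Pooled regions were called on these same replicates. The same share over all regions below the threshold is not given here, so this count is a description. CCAAT within 50 bp of the summit was found in both peaks and in 3 of the 10 other regions, against 21.9% of all nuclear pooled regions outside the peak list. A pooled region with a box lay in the windows of 4 of the 8 genes, for tbx-8 and tbx-9 the same region, against 23.4% of coding genes. Over the whole windows, CCAAT occurred from 1.87 times per kb at tbx-7 to 3.55 times per kb at tbx-37, against 2.42 per kb over the windows of all coding genes.

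The other T-box genes had no peak. Of 15 further names, 14 were matched, tbx-42 through RefSeq's symbol, and tbx-44 is not analysed here. None of the 14 had a peak in its window, where 28.6% of coding genes had one, and 4 had a pooled region, where 58.3% of coding genes had one. The strongest of these lay 4707 bp upstream of tbx-33, with a signal of 50.7, ranks of 4416 and 6304 in replicate 1 and replicate 2 and a CCAAT box within 50 bp. The others, at tbx-31, tbx-41 and tbx-43, had signals from 25.2 to 26.4 for their strongest region and no box. The mesoderm gene tbx-35, the uterine muscle gene mls-1 and the sex determination gene sea-1 had no pooled region.

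Genes that act beside T-box factors in pharynx, mesoderm, hindgut and ectoderm were taken from a list of 27, which was also drawn up with earlier results known. This list includes tbx-35, which is also counted among the other T-box genes above. Of the 27, 13 had a peak in the window (48.1%), against 28.6% of coding genes, and 5 had one with CCAAT within 50 bp, against 9.50%. Their windows were longer, with a median of 8626 bp against 7027 bp. The peaks in the windows of end-3 and glp-1 lay nearest to the starts of other genes, aip-1 and mrpl-44. The strongest was that of the Hox gene egl-5, 1977 bp upstream of its start, with a signal of 589 and a box. The caudal homologue pal-1 had a peak with a signal of 232 and a box, 165 bp upstream of an internal start. The muscle gene hlh-1 had one with a signal of 163 and a box, 110 bp upstream. The pharyngeal organ identity gene pha-4 had its strongest peak 3798 bp upstream, with a signal of 146 and no box. For ubc-9 and smo-1, which encode the SUMO-conjugating enzyme and SUMO and act with TBX-2 in the worm, peaks stood 266 and 508 bp upstream with signals of 95.3 and 108 and no box. The ubc-9 region ranked 1562 in replicate 1 but 5542 in replicate 2, and that of smo-1 ranked 2376 and 1858. The pharyngeal genes myo-2 and pha-2 had no pooled region.

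By signal in both replicates, the peaks most like that of tbx-2 among the 4027 found in both lists were those nearest to the starts of gei-4, vha-12 and efl-1, with summed differences in log2 signal of 0.0366, 0.0385 and 0.0513 over the 2 replicates. Their summits lay 100, 364 and 178 bp upstream of those starts, and none of the 3 held CCAAT within 50 bp.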

How the data were processed

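The members and gene lists were chosen with earlier results of these data known. Per the listings deposited with the files, the authors made narrowPeak lists per replicate and on pooled replicates, which hold background as well as peaks, and from them a list past a reproducibility (IDR) threshold, in ce11 and ce10; the ce11 lists were used. Each region carries a deposited signal value and a q-value deposited as −log10, which was not used. The aligner, peak caller and thresholds were not given in the sources used here. Depth is unknown, since the lists hold no read counts, and control data were not used here.

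Genes came from Ensembl release 115 and sequence and alternative symbols from RefSeq, both WBcel235, the build of ce11. Summits were assigned to windows of 5 kb upstream to the gene end and CCAAT was searched on both strands. Regions on the mitochondrial chromosome were left out. Copies were aligned with blastn 2.17.0 (E-value at most 1e-08). The labels give 1 group, so no comparison of conditions and no test was made, and counts stand beside the share of all coding genes. The counting functions were tested on simulated data with python 3.11.15. By rule the text names the 8 genes, other T-box genes with a peak, genes whose start is nearest to a summit in the windows, and the 3 genes with the most similar peak. Other T-box genes without a peak, genes of the 27-gene list and neighbours outside the windows were named after their values were seen. Alternatives for the window, threshold, box distance and each replicate left out were computed.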

Additional observations from a re-analysis of the deposited data

How the results depend on the processing

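Of 25 alternatives, 18 gave a count within 1.5 times that reported. With 10 kb upstream, 4 genes had a peak and 7 a pooled region, in place of 2 and 4. Under the other alternatives for genes with a peak the count was 2, also from the strongest regions of either replicate alone (2 without replicate 1 and 2 without replicate 2). The count of 4 genes with a pooled region became 2 with the window at the start alone, 2 with the upper 50% of the pooled list by signal, and ranged from 2 (without replicate 1) to 4 (without replicate 2). The 5 pooled regions with CCAAT became 4 with a distance of 25 bp, 8 with 100 bp and 10 with the box anywhere in the region. The shares over all pooled regions at these distances are not given here. Both peaks kept a box at each distance and around the summits of either replicate. The cause of these differences was not tested beyond the wider or narrower windows and lists themselves. No paired analysis was possible because there was 1 group and no test. Unknown depth limits what the absence of a region shows.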

Other observations

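The word TGGGCGGAGC that tbx-2 and mab-9 share was found in 246 of the 4084 nuclear peaks, mostly away from coding starts, where 9.25% of peaks held it against 1.90% of the 1793 peaks at starts. Of the 246, 223 (90.7%) held CCAAT within 50 bp of the summit, and their median signal was 178, near that of mab-9. Within 20 bases of the word, 211 of the 246 peaks held a box on the strand opposite to the word and 59 held one on the same strand, some holding both. The boxes of tbx-2 and mab-9 were on the same strand as the word, but in opposite order and at different spacing. A box on the strand of the word was held by 6 of the 34 peaks at starts with the word, tbx-2 and mab-9 included. Of the 34, 15 held a box on the opposite strand. These counts were made after the word had been seen in both promoters, and what the strand of the box does was not tested.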
